A study of Homo sapiens with 60 samples.

Results

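Of the genes of bile acid handling, 10 were followed across HepG2 libraries, picked by name for their place in the pathway with earlier results of these data known: NR1H4, NR0B2, FGF19, SLC51A, SLC51B, CYP7A1, CYP8B1, CYP27A1, BAAT and ABCB11. They are 10 of the 60675 genes in the count table, and 8 of them passed the filter on low counts that left 16093 genes for testing. FGF19 and ABCB11 did not pass it. In 4 extracts at the highest dose (Cimicifugae Rhizoma, Aconiti Lateralis Radix Preparata, Bupleuri Radix and Banhasasim-tang), NR1H4 fell 1.63-fold to 3.56-fold between the lowest and the highest dose, SLC51B fell with it, and SLC51A and BAAT rose. SLC51B was also called lower with Citri Unshius Pericarpium, where NR1H4 was not called, although that SLC51B call was lost in 2 of 17 alternative fits. Yijung-tang, a formula of several herbs, left all 8 tested genes without a called difference between those doses.

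NR1H4 encodes FXR, the nuclear receptor that binds bile acids and acts on DNA together with RXR. In liver it switches on NR0B2, which encodes the repressor SHP, as well as ABCB11, the pump that exports bile salts into the canaliculus, and SLC51A and SLC51B, the subunits of the organic solute transporter that carries bile acids out across the basolateral membrane. FGF19 is a hormone made under FXR control that signals through FGFR4 with its coreceptor KLB. SHP and FGF19 both lower CYP7A1, the rate-limiting enzyme of bile acid synthesis, and CYP8B1, the sterol hydroxylase that sets how much cholic acid is made. CYP27A1 is a mitochondrial sterol hydroxylase that begins the alternative route, and BAAT joins finished bile acids to glycine or taurine.

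HepG2 is an established human liver tumour line, and RNA was taken after 24 h of exposure. Water extracts of 4 single herbs (Aconiti Lateralis Radix Preparata, Bupleuri Radix, Cimicifugae Rhizoma and Citri Unshius Pericarpium) and of 3 formulas of several herbs (Yijung-tang, Banhasasim-tang and Bojungikgi-tang) were each given at 20, 100 and 500 µg/mL, and the vehicle was 0.1% DMSO per the sample labels. The series' design text names 2% DMSO as its vehicle and a wortmannin control, which was not analysed here. The 19 replicated groups (vehicle, and 3 doses of each extract other than Bojungikgi-tang) hold 3 libraries each, 57 in all, and Bojungikgi-tang has 1 library at each dose, 60 libraries in total. The labels do not say whether the 3 libraries of a group were grown as separate cultures, and the spread behind the p-values may therefore be technical. The sample names put Citri Unshius Pericarpium with Cimicifugae Rhizoma, Bupleuri Radix with Aconiti Lateralis Radix Preparata, and Yijung-tang with Banhasasim-tang in sets of the same number, and the vehicle libraries in a set of their own. All the sample titles carry the same label, BatchB, and the labels do not say what the set number stands for. Any difference between sets cannot be told apart from treatment in a comparison with vehicle. The lowest dose of the same extract was therefore taken as the main reference.

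Library totals ran from 17598646 to 30451640 expected counts. All 9 hepatocyte markers of the list were tested, and their summed level was 36476.7 to 44231.2 CPM (counts in every 1000000 of the scaled library total). For the summed hepatocyte markers, the range was 38309.2 to 39390.1 CPM at 500 µg/mL of Cimicifugae Rhizoma against 43705.4 to 43999.7 CPM at 20 µg/mL, and 36928.9 to 37632 CPM against 40827.5 to 42565 CPM for Aconiti Lateralis Radix Preparata. It was also lower at 500 µg/mL, without overlap, for Citri Unshius Pericarpium and Yijung-tang, and overlapped for the other two. All libraries are of the same cell line, and CPM is a share of the scaled library total. A lower sum is therefore a smaller share of the counts, and neither RNA per cell nor differences between cells can be read from it. Of the cholangiocyte markers, KRT7, CFTR and SCTR were under 0.1 CPM. Vehicle replicate 2 stood apart in holding blood cell transcripts: PTPRC was at 6.95 CPM and CD3E at 5.49 CPM there, against at most 0.0458 and 0.0495 CPM in the 57 extract libraries. Its part in the comparisons with vehicle is given beside them, with values without that library.

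Promoter sequence was looked up for the 10 genes, since FXR binds DNA at an inverted repeat of AGGTCA spaced by a single base (IR-1). Windows from the RefSeq promoter table (GRCh38.p14) were read for 6 of the 10: NR1H4, SLC51A, SLC51B, CYP27A1, BAAT and ABCB11. They had 7 windows of 250 bases before a start site. The promoters of the remaining members were not searched, and nothing is said of them here. The windows of the transporter subunits are shown because SLC51A and SLC51B moved in opposite directions, and that of NR1H4 because it encodes the receptor itself. The window of NR1H4 lies at chr12:100503110-100503359, that of SLC51A at chr3:196216284-196216533 and that of SLC51B at chr15:65045137-65045386, all on the plus strand. The NR1H4 gene begins at 100473708 and SLC51A at 196211487, so their windows lie within the genes, before a later start site. The CYP27A1 window also begins past the first base of its gene. Capitals mark a match to IR-1 with up to 2 mismatches, or to the hexamer AGGTCA read on either strand.
NR1H4: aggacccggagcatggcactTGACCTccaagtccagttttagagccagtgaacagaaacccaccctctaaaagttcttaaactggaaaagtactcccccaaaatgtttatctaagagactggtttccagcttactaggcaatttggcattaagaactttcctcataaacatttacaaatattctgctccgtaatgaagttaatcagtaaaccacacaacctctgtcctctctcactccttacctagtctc
SLC51A: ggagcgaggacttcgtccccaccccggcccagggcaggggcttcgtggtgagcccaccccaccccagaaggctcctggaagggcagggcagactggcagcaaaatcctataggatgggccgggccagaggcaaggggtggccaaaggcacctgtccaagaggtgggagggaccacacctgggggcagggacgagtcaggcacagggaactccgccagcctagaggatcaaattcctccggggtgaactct
SLC51B: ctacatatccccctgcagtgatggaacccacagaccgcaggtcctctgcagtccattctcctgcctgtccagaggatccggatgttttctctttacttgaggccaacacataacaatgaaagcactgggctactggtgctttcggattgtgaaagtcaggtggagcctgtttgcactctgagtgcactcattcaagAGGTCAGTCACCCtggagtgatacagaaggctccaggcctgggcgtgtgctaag
In the SLC51B window, AGGTCAGTCACCC at -54 to -42 from the start site matched IR-1 (AGGTCANTGACCT, both strands) with 2 mismatches, and its first 6 bases are the hexamer itself. The NR1H4 window held the hexamer on the minus strand at -230 to -225, and the SLC51A window held no match. Neither result describes the sequence before the first base of these genes, which was not searched. ABCB11 had ATGTCACTGAACT at -96 to -84, also with 2 mismatches, BAAT had the hexamer on the opposite strand in 1 of its 2 windows, and CYP27A1 had no match. Over all 35116 windows of the table, 332 (0.945%) held IR-1 with up to 2 mismatches, 17 (0.0484%) with up to 1 and 0 without a mismatch, while 4242 (12.1%) held the hexamer. Such a match describes letters, not binding.

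On a scale per transcript length (CPM per kilobase of the longest transcript, vehicle, mean ± SD, n = 3), CYP27A1 was at 51.4 ± 1.86, NR0B2 at 38.0 ± 2.10 and NR1H4 at 24.6 ± 0.771 CPM per kilobase. SLC51B followed at 7.97 ± 0.469 and SLC51A at 2.20 ± 0.278 CPM per kilobase, then BAAT at 0.952 ± 0.114, CYP8B1 at 0.602 ± 0.0854 and CYP7A1 at 0.145 ± 0.0334. The 3 vehicle libraries of each of these 8 genes did not overlap with those of its neighbours in this order. With the union of exons as the length, SLC51A and BAAT changed places. CYP27A1 lay above 93.6% of the tested genes in vehicle cells and CYP7A1 above 5.62%. FGF19 had 27 counts in all, in 23 of the 60 libraries, and ABCB11 had 8 counts in 7 libraries, with at most 2 counts in any library. The limit that a count of 0 allows (3 counts) was 0.0963 to 0.165 CPM per library, so no difference in FGF19 or ABCB11 was detectable at this depth.

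NR1H4 (chr12:100473708-100564413, plus strand, GRCh38) fell between 20 and 500 µg/mL in 4 of the 6 extracts. In vehicle its level was 71.9, 72.8 and 68.5 CPM. At 20 µg/mL of Cimicifugae Rhizoma it was 62.8, 62.7 and 60.7 CPM, and at 500 µg/mL 18, 16.6 and 17.6 CPM. Aconiti Lateralis Radix Preparata gave 56.3, 61.2 and 60.4 CPM at 20 µg/mL and 18.7, 17.1 and 16.5 CPM at 500 µg/mL. The highest-dose libraries of these extracts lay far below every lower-dose library, with no overlap. Levels for Bupleuri Radix were 69.5, 69.0 and 64.0 CPM at 20 µg/mL and 34.4, 34.7 and 33.5 CPM at 500 µg/mL. For Banhasasim-tang they were 65.4, 66.8 and 66.8 CPM at 20 µg/mL and 40.2, 40.6 and 41.4 CPM at 500 µg/mL. These groups did not overlap either, and the level at 500 µg/mL stood between that of the lower doses and that of Cimicifugae Rhizoma.

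Between 20 and 500 µg/mL, NR1H4 fell by 1.83 on the log2 scale (SE 0.062) with Cimicifugae Rhizoma, with an adjusted p of 7.80e-31 by edgeR's quasi-likelihood test with Benjamini-Hochberg adjustment over all tested genes, which gives every adjusted p below. The fall was 3.56-fold. Only 58 of the 16093 tested genes had a lower log2 fold change there. With Aconiti Lateralis Radix Preparata, NR1H4 fell by 1.76 (SE 0.061; edgeR adjusted p = 9.52e-31), and 58 genes were lower. It fell by 0.98 with Bupleuri Radix (SE 0.055; edgeR adjusted p = 1.18e-20) and by 0.70 with Banhasasim-tang (SE 0.054; edgeR adjusted p = 2.26e-15). Citri Unshius Pericarpium left NR1H4 at 67.6, 65.0 and 68.0 CPM at 20 µg/mL and 61.6, 62.2 and 58.8 CPM at 500 µg/mL, a log2 difference of -0.14 that was not called (edgeR adjusted p = 0.267) although the libraries did not overlap. Under Yijung-tang it stood at 67.1, 65.4 and 66.0 CPM at 20 µg/mL and 65.4, 70.0 and 67.5 CPM at 500 µg/mL, overlapping, with a 95% interval of the log2 difference from -0.07 to 0.14.

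At the middle dose the receptor moved little. NR1H4 was 55.2, 54.1 and 49.5 CPM at 100 µg/mL of Cimicifugae Rhizoma, a fall of 0.23 on the log2 scale from 20 µg/mL (edgeR adjusted p = 0.0140), and 55.6, 50.5 and 48.7 CPM with Aconiti Lateralis Radix Preparata, where it fell by 0.20 (edgeR adjusted p = 0.0133). Yijung-tang gave its lowest NR1H4 at this dose, 56.1, 59.9 and 54.4 CPM, and the gene fell by 0.22 (edgeR adjusted p = 0.0157), below both its lower and its higher dose. Bojungikgi-tang, with no replicate, had NR1H4 at 67.0, 64.5 and 53.0 CPM at 20, 100 and 500 µg/mL.

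NR0B2, the SHP repressor (chr1:26911489-26913966, minus strand), went the other way from NR1H4 in 3 of the 4 extracts. Vehicle libraries had 42.0, 43.1 and 46.7 CPM. Cimicifugae Rhizoma gave 46.7, 50.6 and 48.5 CPM at 20 µg/mL, 53.9, 54.9 and 54.9 CPM at 100 µg/mL and 102, 115 and 103 CPM at 500 µg/mL. NR0B2 was thus highest in the same libraries in which NR1H4 was among its lowest, a rise of 1.13 on the log2 scale between 20 and 500 µg/mL (SE 0.060; edgeR adjusted p = 9.81e-23) or 2.19-fold. Bupleuri Radix gave 49.6, 48.9 and 52.5 CPM at 20 µg/mL and 74.5, 75.2 and 79.1 CPM at 500 µg/mL. With Aconiti Lateralis Radix Preparata it was 41.8, 48.0 and 49.8 CPM at 20 µg/mL and 72.8, 68.4 and 71.0 CPM at 500 µg/mL. In both, NR0B2 rose by 0.60 (SE 0.059 and 0.060; edgeR adjusted p = 6.46e-12 and 2.70e-12) with no overlap of libraries.

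Banhasasim-tang had NR0B2 at 54.6, 64.3 and 55.9 CPM at 20 µg/mL and 60.1, 67.7 and 65.0 CPM at 500 µg/mL, overlapping, a log2 difference of 0.14 that was not called (edgeR adjusted p = 0.0991). Other fits put it past the threshold, with edgeR adjusted p of 0.0435 with the replicate number as a block, 0.0113 with a trend in GC content removed and 0.0204 without 20 µg/mL replicate 2. Citri Unshius Pericarpium was the extract in which NR0B2 fell, from 52.0, 53.0 and 53.0 CPM to 42.3, 44.0 and 48.1 CPM, by 0.23 on the log2 scale (edgeR adjusted p = 0.0338). That call was lost in 5 of the 6 fits that left out 1 library of the comparison (edgeR adjusted p 0.0804 to 0.242). In Yijung-tang NR0B2 was 50.3, 57.2 and 52.5 CPM against 55.5, 57.2 and 52.7 CPM, with a 95% interval from -0.07 to 0.17.

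**Figure D1:**
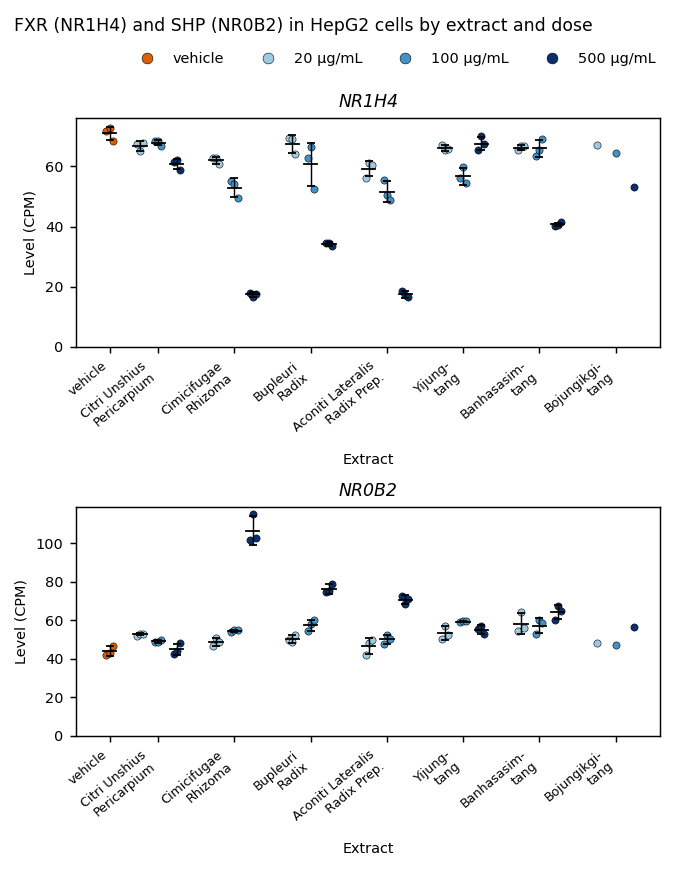
NR1H4 (FXR) and NR0B2 (SHP) in CPM on the vertical axis for each library, by extract and dose in µg/mL; points are libraries and bars the mean ± SD of 3, with Bojungikgi-tang a single library per dose. At 500 µg/mL of Cimicifugae Rhizoma the NR1H4 points sit at 16.6 to 18 CPM and the NR0B2 points at 102 to 115 CPM.

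The subunits of the organic solute transporter parted. SLC51A (chr3:196211487-196243178, plus strand) rose with 4 extracts between 20 and 500 µg/mL, and SLC51B (chr15:65045370-65053396, plus strand) fell with 5, so that within each of 4 extracts SLC51A rose while SLC51B fell. For Cimicifugae Rhizoma, SLC51A was 4.31, 4.70 and 5.30 CPM at 20 µg/mL and 7.54, 7.29 and 7.72 CPM at 500 µg/mL. SLC51B in the same libraries was 6.30, 6.35 and 6.05 CPM and then 4.06, 3.70 and 3.73 CPM. Neither pair of groups overlapped, and SLC51A rose by 0.66 (SE 0.11; edgeR adjusted p = 3.91e-06) while SLC51B fell by 0.70 (SE 0.12; edgeR adjusted p = 1.70e-06).

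With Aconiti Lateralis Radix Preparata, SLC51B went from 5.89, 6.95 and 6.52 CPM to 2.99, 2.91 and 3.37 CPM, the lowest group of all. This was a fall of 1.06 on the log2 scale (SE 0.12; edgeR adjusted p = 4.17e-11), 2.09-fold, while SLC51A moved from 3.94, 3.92 and 3.74 CPM to 4.94, 5.68 and 5.10 CPM and rose by 0.44 (edgeR adjusted p = 0.00259). Under Bupleuri Radix, SLC51B went from 5.78, 7.55 and 6.44 CPM to 3.74, 3.89 and 3.81 CPM. It fell by 0.78 there (edgeR adjusted p = 1.38e-07), and SLC51A rose by 0.44, from 3.60, 3.67 and 3.28 CPM to 4.63, 4.51 and 5.16 CPM (edgeR adjusted p = 0.00507).

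Banhasasim-tang had SLC51B at 7.31, 7.40 and 8.10 CPM at 20 µg/mL and at 5.50, 4.74 and 5.14 CPM at 500 µg/mL, where it fell by 0.57 (edgeR adjusted p = 2.96e-05). SLC51A was 4.48, 3.19 and 3.94 CPM against 4.71, 4.78 and 6.05 CPM and rose by 0.42 (edgeR adjusted p = 0.00735). The groups did not overlap, but this SLC51A call was lost without 20 µg/mL replicate 2 (edgeR adjusted p = 0.131), without 500 µg/mL replicate 3 (0.159) and in a fit of the extract's own libraries with vehicle (0.0669). With Citri Unshius Pericarpium SLC51B fell by 0.48, from 8.42, 7.42 and 6.96 CPM to 5.97, 5.89 and 4.55 CPM (edgeR adjusted p = 0.00560), a call lost without 20 µg/mL replicate 1 (0.0922) or 500 µg/mL replicate 3 (0.153). Its SLC51A was 3.22, 4.03 and 3.28 CPM against 3.58, 4.11 and 3.98 CPM, overlapping, with a 95% interval of the log2 difference from -0.11 to 0.41.

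Yijung-tang left SLC51B at 7.53, 8.15 and 7.21 CPM at 20 µg/mL and 7.25, 8.42 and 7.40 CPM at 500 µg/mL, with an interval from -0.19 to 0.20. At its 100 µg/mL dose SLC51A was lower, at 2.76, 2.26 and 2.97 CPM against 4.07, 3.73 and 3.68 CPM at 20 µg/mL, and fell by 0.52 (edgeR adjusted p = 0.0201). DESeq2 gave no adjusted p for that gene there. Some exon bases of these genes are shared with genes on the opposite strand, and the sources used here do not say whether counting used strand. SLC51A shares 389 of 5293 exon bases with PCYT1A, whose mean level was 77.3 CPM. PCYT1A was higher at 500 than at 20 µg/mL in the 4 extracts in which SLC51A rose. Its log2 differences there were 0.26 (Cimicifugae Rhizoma), 0.18 (Bupleuri Radix), 0.30 (Aconiti Lateralis Radix Preparata) and 0.21 (Banhasasim-tang). They were 0.10 with Citri Unshius Pericarpium and 0.02 with Yijung-tang. The part of PCYT1A reads in the SLC51A values was not tested. SLC51B shares 60 of 940 with RASL12, which averaged 0.283 CPM.

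**Figure D2:**
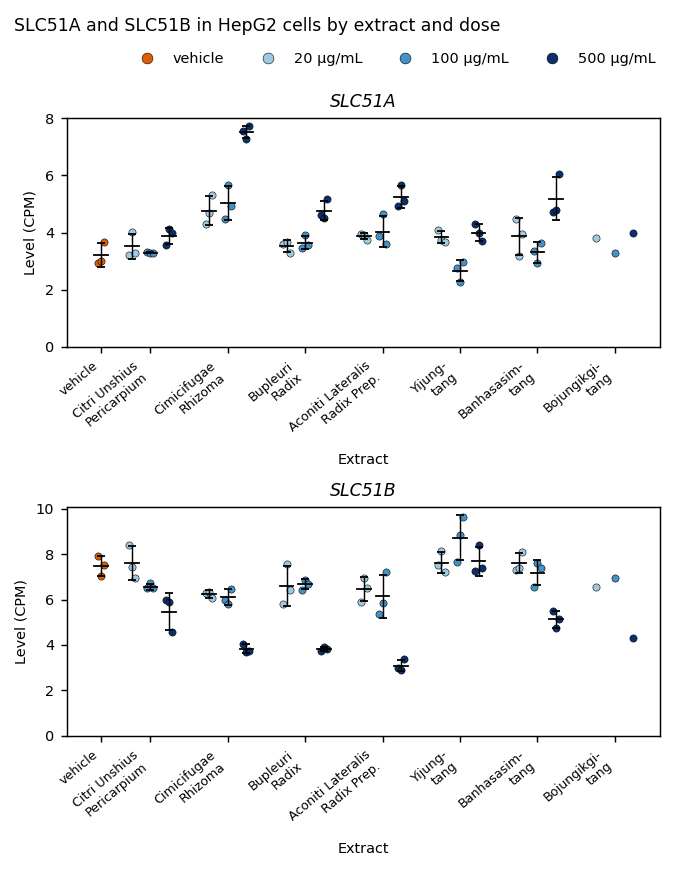
SLC51A and SLC51B, the subunits of the organic solute transporter, in CPM on the vertical axis for each library, by extract and dose in µg/mL; points are libraries and bars the mean ± SD of 3, with Bojungikgi-tang a single library per dose. With Cimicifugae Rhizoma the SLC51A points move up to 7.29 to 7.72 CPM at 500 µg/mL while those of SLC51B move down to 3.70 to 4.06 CPM.

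Among the enzymes, CYP7A1 (chr8:58490178-58500236, minus strand) was read at the edge of detection, from 0.0777 to 0.855 CPM per library or 2 to 21 counts with a median of 10. Banhasasim-tang had it at 0.359, 0.301 and 0.434 CPM at 20 µg/mL and at 0.0786, 0.113 and 0.135 CPM at 500 µg/mL. The groups stood apart, and CYP7A1 fell by 1.68 on the log2 scale (SE 0.45; edgeR adjusted p = 0.00717). Summed over libraries this was 9 counts against 30, a depth-adjusted ratio of 0.302 with a 95% counting interval of 0.126 to 0.652. Its highest levels were also in this extract, at 100 µg/mL, where the libraries had 0.855, 0.682 and 0.648 CPM.

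Cimicifugae Rhizoma lowered CYP7A1 from 0.610, 0.537 and 0.580 CPM to 0.191, 0.364 and 0.216 CPM, by 1.16 on the log2 scale (SE 0.39; edgeR adjusted p = 0.0142), with 15 counts against 41 (ratio 0.443, interval 0.228 to 0.818). The call was lost with no filter on low counts (edgeR adjusted p = 0.0626) and without 500 µg/mL replicate 1 (0.0857) or replicate 3 (0.0550). With Aconiti Lateralis Radix Preparata CYP7A1 fell by 1.29 (SE 0.39; edgeR adjusted p = 0.00665), but its libraries overlapped, at 0.476, 0.370 and 0.677 CPM against 0.0777, 0.143 and 0.410 CPM. Without 500 µg/mL replicate 1 the adjusted p was 0.137 and without 20 µg/mL replicate 3 it was 0.0945. Bupleuri Radix, with 27 counts against 31, had a ratio of 0.921 and an interval of 0.529 to 1.60, and Citri Unshius Pericarpium, with 33 against 24, a ratio of 1.26 and an interval of 0.722 to 2.23. For Yijung-tang 40 counts stood against 25, a ratio of 1.64 with an interval of 0.972 to 2.82, and the log2 difference of 0.71 was not called (edgeR adjusted p = 0.337). Such intervals cover counting error only.

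CYP8B1 (chr3:42856005-42876165, minus strand) passed the test in 1 extract. It was 3.08, 2.99 and 3.38 CPM at 20 µg/mL of Aconiti Lateralis Radix Preparata and 2.25, 2.05 and 1.78 CPM at 500 µg/mL, without overlap, and fell by 0.63 (SE 0.15; edgeR adjusted p = 0.000646). The vehicle mean was 2.39 CPM, between these groups, and the 500 µg/mL group was not called against vehicle (edgeR adjusted p = 0.253). In the other 5 extracts its log2 difference lay between -0.19 and 0.24. Of its 4441 exon bases, 142 are shared with ACKR2 on the opposite strand, which averaged 1.69 CPM. The log2 difference of ACKR2 was -0.34 with Aconiti Lateralis Radix Preparata and 0.24 with Bupleuri Radix. It was -0.23, 0.08, -0.09 and -0.11 with Citri Unshius Pericarpium, Cimicifugae Rhizoma, Yijung-tang and Banhasasim-tang. The part of ACKR2 reads in the CYP8B1 values was not tested.

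CYP27A1 (chr2:218781749-218815293, plus strand), the enzyme with the highest level per length, moved in a narrow band: group means ran from 123 to 153 CPM. Even so it fell between 20 and 500 µg/mL in the 4 extracts in which NR1H4 fell. Levels were 143, 149 and 147 CPM against 124, 127 and 121 CPM for Cimicifugae Rhizoma, and 144, 151 and 151 CPM against 121, 122 and 126 CPM for Aconiti Lateralis Radix Preparata. Falls on the log2 scale were 0.24 and 0.27 in these (edgeR adjusted p = 3.55e-05 and 2.53e-06). CYP27A1 fell by 0.23 with Bupleuri Radix (edgeR adjusted p = 0.000142) and by 0.22 with Banhasasim-tang (edgeR adjusted p = 0.000364), with no overlap of libraries in any of the 4. None of these 500 µg/mL groups was called against vehicle, whose mean was 132 CPM.

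BAAT (chr9:101360417-101383519, minus strand), the conjugating enzyme, rose in the same 4 extracts. Bupleuri Radix took it from 3.21, 2.94 and 3.08 CPM to 6.08, 4.97 and 6.33 CPM, a rise of 0.91 (SE 0.12; edgeR adjusted p = 3.04e-08) or 1.88-fold. Under Cimicifugae Rhizoma it went from 3.17, 4.47 and 3.97 CPM to 5.68, 5.62 and 5.83 CPM, and rose by 0.56 (edgeR adjusted p = 0.000152). Aconiti Lateralis Radix Preparata gave 2.64, 2.18 and 2.99 CPM and then 4.47, 3.44 and 3.83 CPM, a rise of 0.59 (edgeR adjusted p = 0.000218). With Banhasasim-tang BAAT rose by 0.51, from 3.19, 3.53 and 2.86 CPM to 4.87, 4.25 and 4.50 CPM (edgeR adjusted p = 0.00193). None of these groups overlapped. In Yijung-tang the difference was -0.28 and not called (edgeR adjusted p = 0.294). BAAT shares 453 of 3389 exon bases with a pseudogene on the opposite strand.

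**Figure D3:**
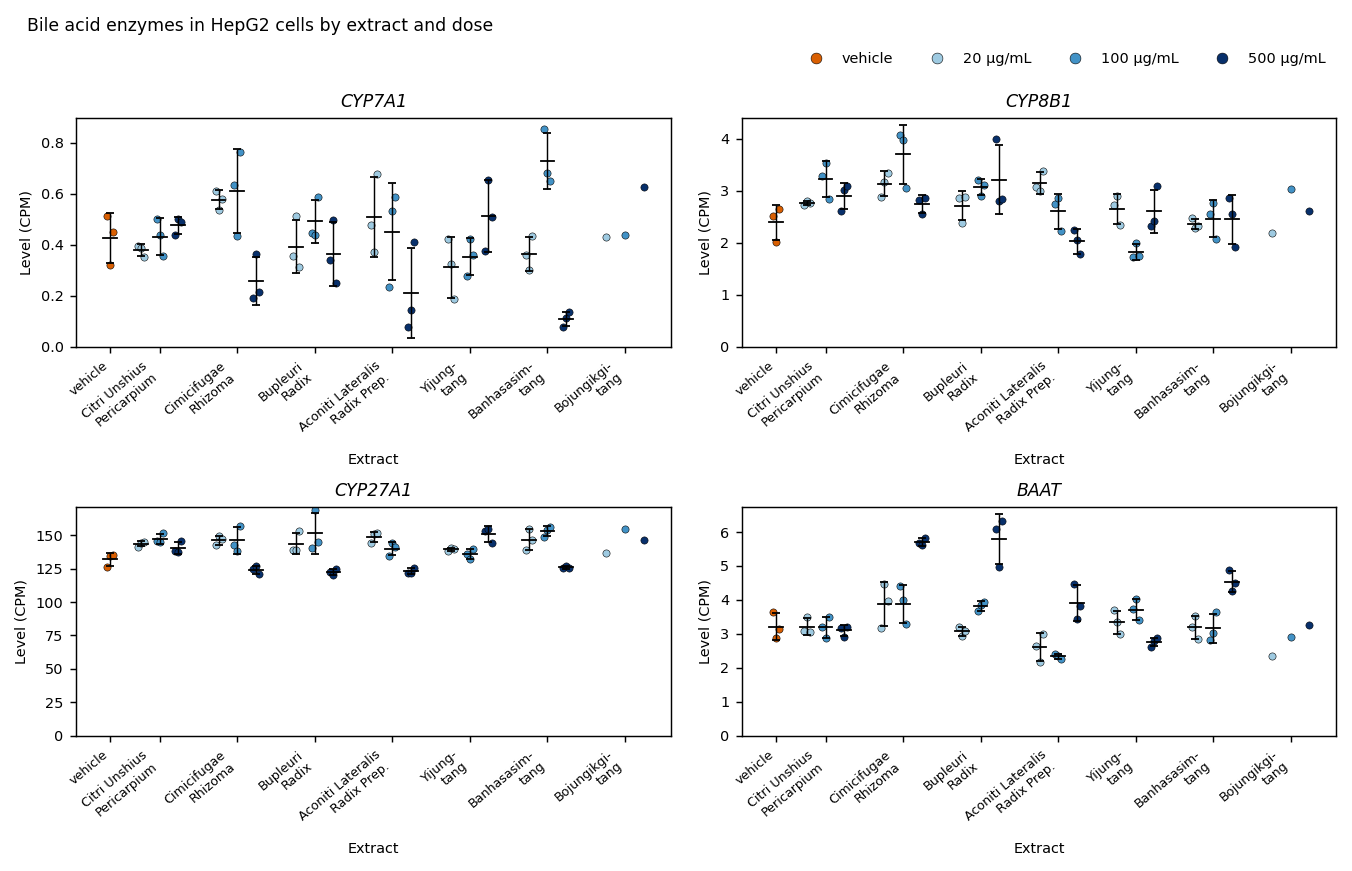
CYP7A1, CYP8B1, CYP27A1 and BAAT in CPM on the vertical axis for each library, by extract and dose in µg/mL; points are libraries and bars the mean ± SD of 3, with Bojungikgi-tang a single library per dose. CYP27A1 group means stay between 123 and 153 CPM, while BAAT rises to 4.97 to 6.33 CPM at 500 µg/mL of Bupleuri Radix.

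The members were chosen with earlier results of these data known, so the counts below and the shares of all genes beside them are descriptions. Counted between 20 and 500 µg/mL, 8 of 8 tested members were called for Aconiti Lateralis Radix Preparata (3 rose, 5 fell), where 37.1% of all tested genes were called (19.1% rose and 17.9% fell). Cimicifugae Rhizoma had 7 of 8 (3 rose, 4 fell) against 39% of all genes (19.4% and 19.6%). Bupleuri Radix had 6 of 8 (3 rose, 3 fell) against 18.5% (9.77% and 8.76%), and Banhasasim-tang 6 of 8 (2 rose, 4 fell) against 14.9% (8.5% and 6.44%). For Citri Unshius Pericarpium 2 of 8 fell, against 1.58% of all genes called (0.665% rose and 0.92% fell), and leaving out any 1 of its 6 libraries lowered the 2 calls to 1, or to 0 without 20 µg/mL replicate 1. Yijung-tang had 0 of 8 by edgeR, with 3 at an unadjusted p under 0.05 and 0 by DESeq2, where 3.73% of all genes were called (1.61% rose and 2.13% fell). DESeq2 gave no adjusted p for CYP7A1 there.

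At 100 against 20 µg/mL the members called were 1 for Cimicifugae Rhizoma (1.18% of all genes called), 1 for Aconiti Lateralis Radix Preparata (5.49%) and 2 for Yijung-tang (1.19%). Yijung-tang's count was 0 when its own libraries and vehicle were fitted alone. Counts of 0 were found for Citri Unshius Pericarpium (0.0249% of all genes), Bupleuri Radix (0.168%) and Banhasasim-tang (0.0124%) with edgeR, with 1, 3 and 1 members at an unadjusted p under 0.05 and 0 by DESeq2 in each. For Citri Unshius Pericarpium and Bupleuri Radix, DESeq2 gave an adjusted p only for NR1H4, NR0B2 and CYP27A1, so the other members could not be called by it. The F test that the dose effects of the 6 extracts were equal was passed by all 8 tested members, with edgeR adjusted p from 7.93e-29 for NR1H4 to 0.0334 for SLC51A, where 36.5% of all genes passed.

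**Figure D4:**
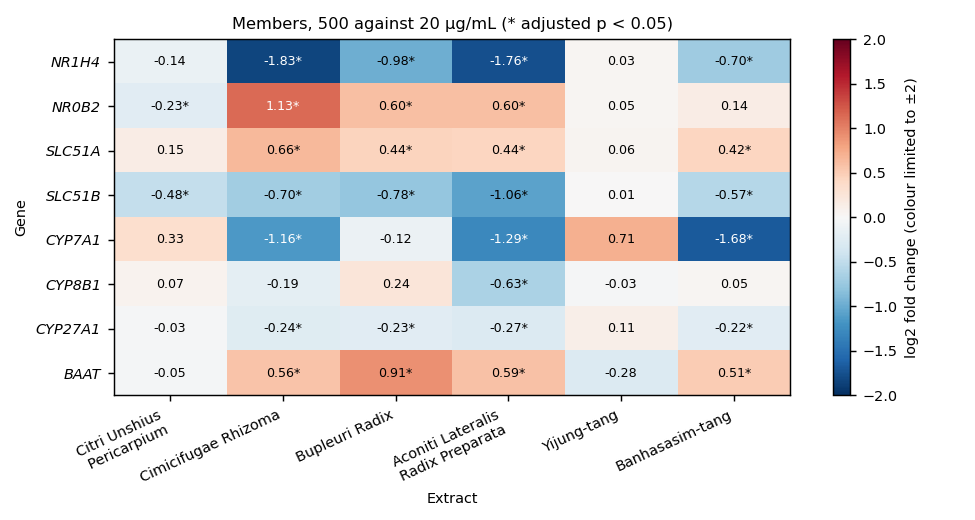
Log2 fold change at 500 against 20 µg/mL for the 8 tested members (rows) in 6 extracts (columns), with colours limited at 2 in either direction and a star where the edgeR adjusted p is under 0.05. NR1H4 and SLC51B are lower and SLC51A and BAAT higher, with stars, in the same 4 columns. SLC51B is also starred in the Citri Unshius Pericarpium column (-0.48), where NR1H4 is not. The Yijung-tang column holds no star.

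Extracts of the same set of libraries were compared directly at 500 µg/mL. Cimicifugae Rhizoma differed from Citri Unshius Pericarpium in 6 of 8 members (41.6% of all genes called): NR1H4 was 3.49-fold lower in Cimicifugae Rhizoma, NR0B2 2.38-fold higher, SLC51A 1.93-fold and BAAT 1.84-fold higher, SLC51B 1.42-fold and CYP27A1 1.13-fold lower. Aconiti Lateralis Radix Preparata differed from Bupleuri Radix in 3 members (23.2% of all genes), being lower in NR1H4 (1.96-fold, edgeR adjusted p = 2.13e-18), CYP8B1 (1.57-fold) and BAAT (1.48-fold). Between the formulas, Yijung-tang and Banhasasim-tang, 7 of 8 members differed (14.6% of all genes), all but CYP8B1. CYP7A1 was 4.46-fold lower in Banhasasim-tang (log2 difference 2.16, SE 0.43; edgeR adjusted p = 0.000117) and NR1H4 1.66-fold lower, while BAAT was 1.65-fold higher. The SLC51A call in this pair (-0.38) was lost with no filter (edgeR adjusted p = 0.0694), without Yijung-tang 500 µg/mL replicate 3 (0.0895) and without Banhasasim-tang 500 µg/mL replicate 3 (-0.25, 0.245), and the NR0B2 call (-0.22) without Banhasasim-tang 500 µg/mL replicate 2 (0.0594). The change from 20 to 500 µg/mL itself differed between the extracts of a set for 6, 2 and 5 members in these 3 pairs, where 27.9%, 9.95% and 11.8% of all genes were called, and those values are given in the closing section.

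Against vehicle, with the set of libraries differing as well, the 500 µg/mL groups had 2 members called for Citri Unshius Pericarpium (22.3% of all genes), 5 for Cimicifugae Rhizoma (45.6%), 6 for Bupleuri Radix (35.4%), 5 for Aconiti Lateralis Radix Preparata (47.3%), 2 for Yijung-tang (32.4%) and 6 for Banhasasim-tang (34.5%). NR1H4 fell by 2.03 with Cimicifugae Rhizoma and fell by 2.02 with Aconiti Lateralis Radix Preparata (edgeR adjusted p = 7.29e-33 and 1.58e-33). SLC51A rose by 1.23 and SLC51B fell by 0.97 with Cimicifugae Rhizoma. CYP27A1 was not called there in any of the 4 extracts in which NR1H4 fell from 20 µg/mL (edgeR adjusted p 0.0684 to 0.277). Nor were BAAT (0.29, 0.0652) and CYP8B1 (-0.23, 0.253) with Aconiti Lateralis Radix Preparata, or CYP7A1 with Cimicifugae Rhizoma (-0.73, 0.169). At 20 µg/mL the counts were 1, 3, 1, 3, 1 and 2 in the same order of extracts, where 18.9%, 18.7%, 21.6%, 30.9%, 26.9% and 28.1% of all genes were called, so the members were called there no more often than all genes in 4 of the 6.

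NR0B2 accounted for 4 of those 11 calls at 20 µg/mL, rising by 0.26 with Citri Unshius Pericarpium, 0.19 with Bupleuri Radix, 0.28 with Yijung-tang and 0.41 with Banhasasim-tang. CYP27A1 rose by 0.15, 0.17 and 0.15 with Cimicifugae Rhizoma, Aconiti Lateralis Radix Preparata and Banhasasim-tang, and each of these values was negative with a trend in GC content removed. Removing it also took away all 4 NR0B2 calls, with values of 0.0925 (edgeR adjusted p = 0.340) for Citri Unshius Pericarpium, 0.00103 (0.997) for Bupleuri Radix, 0.0739 (0.426) for Yijung-tang and 0.164 (0.0579) for Banhasasim-tang. Of the 11 calls at 20 µg/mL, 2 were kept then: NR1H4 with Aconiti Lateralis Radix Preparata and SLC51A with Cimicifugae Rhizoma. It added CYP27A1 with Yijung-tang at that dose (-0.136, edgeR adjusted p = 0.0485). At 500 µg/mL against vehicle it took away both calls of Yijung-tang (NR0B2 0.33, then 0.0780, and CYP27A1 0.19, then -0.0651), CYP7A1 with Aconiti Lateralis Radix Preparata (edgeR adjusted p = 0.0601) and CYP8B1 with Bupleuri Radix (0.0542). It added CYP27A1 with Cimicifugae Rhizoma (-0.247), Bupleuri Radix (-0.301), Aconiti Lateralis Radix Preparata (-0.295) and Banhasasim-tang (-0.289). BAAT was added with Aconiti Lateralis Radix Preparata (0.360, edgeR adjusted p = 0.0194). Without vehicle replicate 2, the library with blood cell transcripts, 34 of the 37 calls against vehicle at 500 and 20 µg/mL were kept. Lost were CYP8B1 with Bupleuri Radix at 500 µg/mL (0.42, then 0.30 with edgeR adjusted p = 0.161), NR0B2 with Bupleuri Radix at 20 µg/mL (0.19, then 0.18 with 0.0791) and CYP8B1 with Aconiti Lateralis Radix Preparata at 20 µg/mL (0.40, then 0.28 with 0.213). Without vehicle replicate 1, 32 of the 37 were kept: CYP7A1 with Aconiti Lateralis Radix Preparata at 500 µg/mL was lost (-1.05, then -0.89 with edgeR adjusted p = 0.147, and also 0.0825 without vehicle replicate 3), as were CYP27A1 with Cimicifugae Rhizoma (0.143) and Banhasasim-tang (0.0940), NR0B2 with Bupleuri Radix (0.115) and CYP8B1 with Aconiti Lateralis Radix Preparata (0.0551) at 20 µg/mL.

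The wider pathway was read from lists that were chosen with earlier results of these data known, between 20 and 500 µg/mL. Of 15 other genes of bile acid synthesis, 10 were tested. Cimicifugae Rhizoma had 3 that rose and 2 that fell, where 19.4% and 19.6% of all tested genes did, and Bupleuri Radix had 1 and 2 (9.77% and 8.76%). In Yijung-tang 3 rose (1.61% of all genes), and 3 each fell in Aconiti Lateralis Radix Preparata (17.9%) and Banhasasim-tang (6.44%). Citri Unshius Pericarpium had 0 called by edgeR (1.58% of all genes), with 4 at an unadjusted p under 0.05 and 0 by DESeq2. AKR1D1, the reductase that shapes the sterol ring of bile acids, fell by 0.92 with Cimicifugae Rhizoma and by 1.17 with Aconiti Lateralis Radix Preparata (edgeR adjusted p = 3.43e-14 and 8.25e-18). HSD17B4, which shortens the side chain in peroxisomes, fell by 0.32 with Cimicifugae Rhizoma, and AMACR, the racemase of that step, rose by 0.32. List medians lay between -0.09 and 0.11, beside 0.00 for all tested genes.

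Other transporters of bile acids and bile lipids had 10 of 16 tested. ABCC2, the canalicular pump of conjugates, rose in all 6 extracts: by 0.36, 1.06, 0.65, 1.20, 0.29 and 0.59 on the log2 scale for Citri Unshius Pericarpium, Cimicifugae Rhizoma, Bupleuri Radix, Aconiti Lateralis Radix Preparata, Yijung-tang and Banhasasim-tang. ABCG2 rose by 1.00 and ABCB1 by 0.79 with Cimicifugae Rhizoma. ABCC3, a basolateral efflux pump, rose by 0.74 with Aconiti Lateralis Radix Preparata (edgeR adjusted p = 3.23e-17). SLCO2B1, an uptake carrier, fell by 0.73 there and by 0.45 with Cimicifugae Rhizoma. In the order of extracts above, 3, 4, 5, 4, 3 and 3 of the 10 rose, where 0.665%, 19.4%, 9.77%, 19.1%, 1.61% and 8.5% of all tested genes did. Of the same 10, 3, 2, 3 and 4 fell with Cimicifugae Rhizoma, Bupleuri Radix, Aconiti Lateralis Radix Preparata and Banhasasim-tang, where 19.6%, 8.76%, 17.9% and 6.44% of all genes fell. The list's median ran from -0.01 with Yijung-tang to 0.17 with Bupleuri Radix.

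All 23 receptors and coregulators of the list were tested. With Aconiti Lateralis Radix Preparata 5 rose and 8 fell (19.1% and 17.9% of all tested genes), with Cimicifugae Rhizoma 4 and 7 (19.4% and 19.6%), with Bupleuri Radix 2 and 6 (9.77% and 8.76%), with Banhasasim-tang 2 and 4 (8.5% and 6.44%), and with Yijung-tang 1 rose (1.61%). For Citri Unshius Pericarpium 0 were called by edgeR (1.58% of all genes), with 6 at an unadjusted p under 0.05 and 1 by DESeq2. The list's median lay between -0.06 and 0.05. RXRA, the partner of FXR, fell by 0.44 with Cimicifugae Rhizoma and 0.33 with Aconiti Lateralis Radix Preparata (edgeR adjusted p = 6.99e-10 and 5.76e-07). FGFR4, the receptor of FGF19, fell by 0.45 and 0.34 in the same extracts, and its coreceptor KLB fell by 0.72 with Aconiti Lateralis Radix Preparata. PPARGC1A, a coactivator induced in fasting, rose by 0.67 with Cimicifugae Rhizoma.

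Of 24 genes outside the members reported as FXR targets in liver, 20 were tested. ABCB4, SLCO1B3, FABP6, SLC27A5, PPARA and MAFG are also in the lists above. The direction in which FXR is reported to act on each target was not used in these counts. With Citri Unshius Pericarpium 5 fell, where 0.92% of all tested genes did. With Cimicifugae Rhizoma 10 fell and 4 rose (19.6% and 19.4% of all genes), with Bupleuri Radix 4 and 2 (8.76% and 9.77%), with Aconiti Lateralis Radix Preparata 12 and 4 (17.9% and 19.1%), with Yijung-tang 3 and 1 (2.13% and 1.61%) and with Banhasasim-tang 8 and 3 (6.44% and 8.5%). KNG1, the precursor of kinins, fell by 2.16 with Aconiti Lateralis Radix Preparata (SE 0.12; edgeR adjusted p = 4.67e-22), 1.52 with Cimicifugae Rhizoma, 1.14 with Banhasasim-tang, 1.07 with Bupleuri Radix and 0.64 with Citri Unshius Pericarpium, and its difference with Yijung-tang was 0.01. The fibrinogen genes FGA, FGB and FGG fell by 1.38, 1.03 and 1.17 with Aconiti Lateralis Radix Preparata. ICAM1, an adhesion molecule, was among those that rose, by 0.57 with Bupleuri Radix, and SULT2A1, which sulfates bile acids, fell by 0.69 with Cimicifugae Rhizoma. The list's median log2 fold change ran from -0.33 with Aconiti Lateralis Radix Preparata to 0.05 with Yijung-tang.

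**Figure D5:**
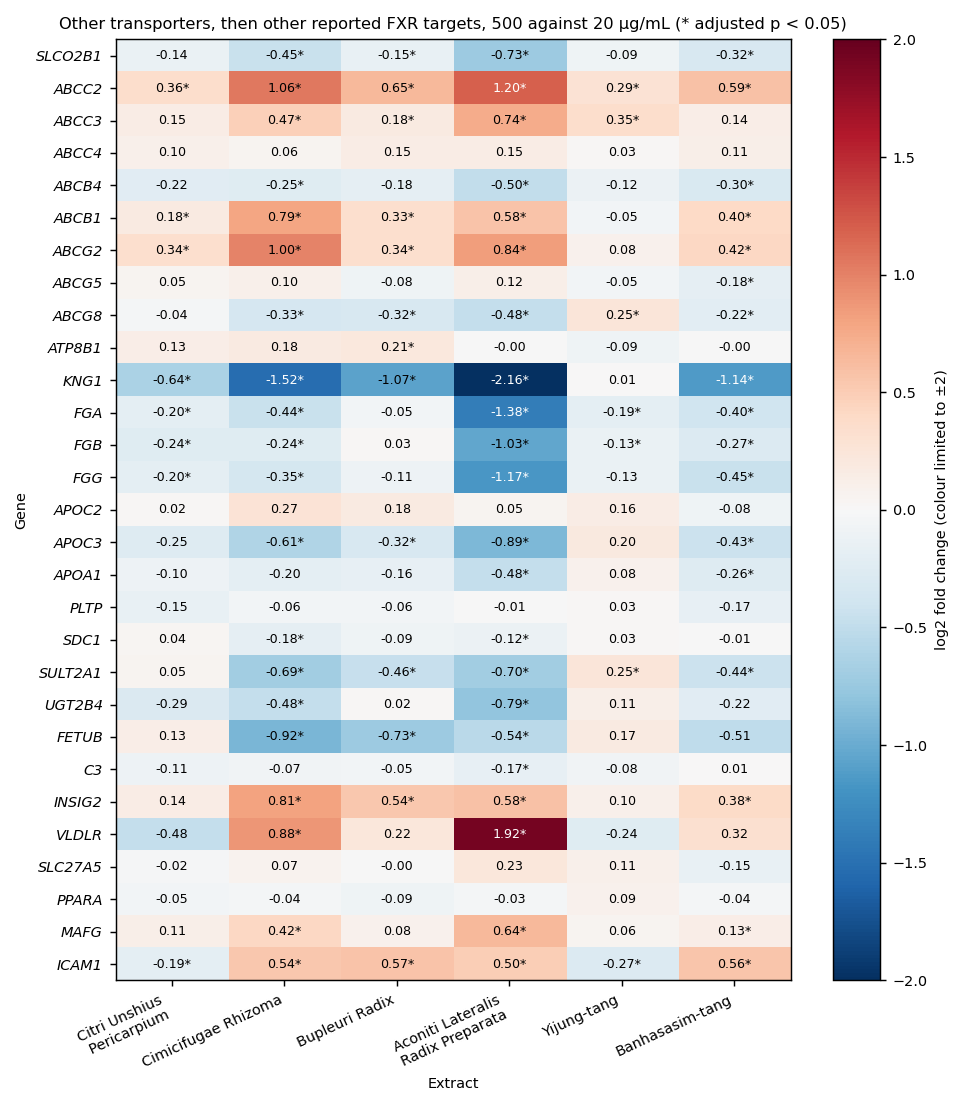
Log2 fold change at 500 against 20 µg/mL for the other transporters and the other reported FXR targets (rows) in 6 extracts (columns), with a star where the edgeR adjusted p is under 0.05. ABCC2 is higher in all 6 columns, and KNG1 is lower in 5 of them with 0.01 for Yijung-tang.

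A list kept as a check on RNA quality holds MALAT1, NEAT1, KCNQ1OT1, RMRP, RPPH1 and histone genes. It does not measure RNA integrity itself. Of its 10 tested transcripts, 3 rose with Cimicifugae Rhizoma and 4 with Aconiti Lateralis Radix Preparata, beside 19.4% and 19.1% of all tested genes. Their summed level was 1261.63 to 1322.23 CPM against 967.326 to 1027.83 CPM at 20 µg/mL in the first, and 1050.92 to 1200.32 CPM against 787.252 to 948.322 CPM in the second. The sum was also higher, without overlap, with Banhasasim-tang (890.984 to 917.174 against 828.722 to 852.701 CPM). Of these, MALAT1 rose by 0.42 and 0.63 and NEAT1 by 0.56 and 0.29. The other 4 extracts had 0 called by edgeR and 0 by DESeq2, with 0, 2, 2 and 1 at an unadjusted p under 0.05 for Citri Unshius Pericarpium, Bupleuri Radix, Yijung-tang and Banhasasim-tang. Summed cholangiocyte markers, mostly KRT19 and SOX9 (2 of 5 tested), were higher at 500 than at 20 µg/mL, without overlap, with Cimicifugae Rhizoma (446 to 472 against 346 to 357 CPM), Bupleuri Radix (395 to 424 against 345 to 364 CPM) and Aconiti Lateralis Radix Preparata (392 to 418 against 348 to 374 CPM). They were lower with Yijung-tang (303 to 322 against 361 to 380 CPM) and Citri Unshius Pericarpium (323 to 332 against 345 to 363 CPM) and overlapped with Banhasasim-tang.

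The fibroblast and stellate list (2 of 5 tested, with COL1A2, COL3A1 and DCN under 0.1 CPM) was higher at 500 than at 20 µg/mL in the 4 extracts in which NR1H4 fell. Its sum was 14.0 to 14.3 against 9.52 to 11.4 CPM with Cimicifugae Rhizoma, 15.0 to 15.9 against 10.7 to 11.6 CPM with Bupleuri Radix, 12 to 13.4 against 8.01 to 8.94 CPM with Aconiti Lateralis Radix Preparata and 14.6 to 16.5 against 10.3 to 12 CPM with Banhasasim-tang. It was lower with Citri Unshius Pericarpium (7.81 to 9.18 against 11.4 to 12.7 CPM) and overlapped with Yijung-tang. COL1A1 and PDGFRB made up most of this sum. The endothelial list (3 of 4 tested, with KDR under 0.1 CPM) was lower in those 4 extracts, at 2.39 to 3.67 against 4.22 to 5.69 CPM with Cimicifugae Rhizoma, and overlapped in the other 2.

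The immune list (2 of 5 tested, with CD3E and CD163 under 0.1 CPM on average) was higher at 500 µg/mL in 5 extracts: 69.5 to 72.0 against 50.4 to 52.0 CPM with Aconiti Lateralis Radix Preparata, 51.3 to 58.0 against 39.8 to 45.2 CPM with Cimicifugae Rhizoma, 49.2 to 50.0 against 39.9 to 43.5 CPM with Banhasasim-tang, 46.9 to 50.4 against 35.8 to 43.6 CPM with Yijung-tang and 46.0 to 49.9 against 43.4 to 43.7 CPM with Citri Unshius Pericarpium. It overlapped with Bupleuri Radix. CD68 and CD14 made up most of this sum. The enterocyte list (2 of 5 tested, with CDX2, SI and SLC10A2 under 0.1 CPM) was lower in the 4 extracts in which NR1H4 fell, at 307 to 333 against 366 to 390 CPM with Aconiti Lateralis Radix Preparata. VIL1 and FABP2 made up most of the enterocyte sum. The part of these lists in the members' changes was not tested.

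Across the 19 group means of log2 CPM, NR1H4 correlated with SLC51B at a Pearson r of 0.90 and with NR0B2 at -0.84, and SLC51A with SLC51B at -0.78. The genes most like NR1H4 by this measure, among protein-coding genes tested, were SKP2 (r = 0.989), UNG (0.988) and RHOBTB1 (0.988). NR0B2 was most like CHPF2 (0.967), DEPP1 (0.952) and BPIFB2 (0.944), and SLC51B most like FADS1 (0.945), a fatty acid desaturase, and SQLE (0.931), an enzyme of cholesterol synthesis. For SLC51A the nearest was G6PC1 (0.882), for CYP27A1 EPHA1 (0.954), for BAAT N4BP2 (0.912) and for CYP8B1 NFATC2 (0.826). These are descriptions: the groups share vehicle, scaling and sets of libraries.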

How the data were processed

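RNA-seq was read from a table of RSEM expected counts deposited by the authors, with 60675 Ensembl genes and 60 columns of these samples. The table has 207 further columns, which were not used. Per the labels' protocols, RNA with an RIN over 7 went into stranded MGI libraries sequenced with 100 bp paired-end reads. The submitters' processing notes list FastQC 0.11.9, Trim Galore 0.6.5, STAR 2.7.3a and RSEM 1.3.3 with GRCh38. The annotation release and the counting strand are not given in the sources used here. Gene names and positions were taken from GENCODE 29, which lists 57055 of the genes.

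Of the nonzero values 24.5% were not whole, and the expected counts were rounded. The 57 libraries of 19 groups of 3 were fitted together in edgeR 4.0.16 (R 4.3.3, limma 3.58.1) with filterByExpr, TMM scaling (factors 0.898 to 1.04), a mean per group and the robust quasi-likelihood test, called at a Benjamini-Hochberg adjusted p under 0.05 over 16093 genes. The common biological coefficient of variation was 4.86%. The fit was tested on simulated data. Bojungikgi-tang, with 1 library per dose, gives values only. CPM uses the TMM-scaled library totals, and a prior count of 2 was used for log2 CPM. Folds of gene lists and intervals are on the fitted log2 scale.

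The 10 members and the lists were chosen with earlier results of these data known. Named list genes were, per extract and list, up to 5 called genes with the smallest p at 500 against 20 µg/mL. The nearest genes were the 3 protein-coding genes with the highest r, for members with a mean CPM of 1 or more. Alternatives were median-ratio scaling, other filters, DESeq2 1.42.0, a replicate block, each extract's own libraries, removal of a GC trend and leaving out each library. A non-robust fit was added after seeing the data. Same-numbered replicates did not deviate together (r from -0.04 to 0.13, and 0 of 12 comparisons with all 3 r over 0.1), so no block was used in the reported fit.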

Additional observations from a re-analysis of the deposited data

Results flagged for a closer look

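Each of the following values is the log2 change from 20 to 500 µg/mL in the first extract minus that in the second extract of the same set of libraries, and each was picked out because the test of this difference passed in edgeR's quasi-likelihood fit (Benjamini-Hochberg adjusted p under 0.05 over all tested genes).

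For Citri Unshius Pericarpium minus Cimicifugae Rhizoma, 6 members differed. NR1H4, the FXR gene, differed by 1.70 and NR0B2 by -1.37, in opposite directions. SLC51A differed by -0.51 (edgeR adjusted p = 0.0218), BAAT by -0.61 (0.00857), CYP7A1 by 1.48 (0.0317) and CYP27A1 by 0.21 (0.0139). The CYP7A1 call was lost in 8 of 18 alternative fits and the SLC51A call in 5 of 19, DESeq2 and no filter among them for both. BAAT lost its call in 2 of 19, CYP27A1 in 1 of 19, and NR1H4 and NR0B2 in 0 of 19. The count of members called fell from 6 to 3 without Cimicifugae Rhizoma 20 µg/mL replicate 1.

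For Bupleuri Radix minus Aconiti Lateralis Radix Preparata, NR1H4 differed by 0.78 (edgeR adjusted p = 1.65e-10) and CYP8B1, the enzyme that sets the amount of cholic acid, by 0.87 (0.00290).

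For Yijung-tang minus Banhasasim-tang, 5 members differed. NR1H4 differed by 0.74 (edgeR adjusted p = 6.10e-11), SLC51B by 0.58 (0.00285), CYP27A1 by 0.33 (0.000174) and BAAT by -0.79 (0.00129). CYP7A1 had the widest difference of these 5, 2.39 (0.00224), on the few counts given in the report.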

How the results depend on the processing

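Over all comparisons, 1409 of 1487 alternative values of called fold changes kept direction and call, 74 lost the call and 4 reversed. The reversals were CYP27A1 with a GC trend removed: -0.0136 (Cimicifugae Rhizoma), -0.0585 (Aconiti Lateralis Radix Preparata) and -0.0991 (Banhasasim-tang) at 20 µg/mL against vehicle, and -0.0651 (Yijung-tang) at 500 µg/mL against vehicle.

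Counts of members called moved as follows, and the cause was not tested. At 500 against 20 µg/mL, Citri Unshius Pericarpium went from 2 to 0 to 1 with a library left out. At 20 µg/mL against vehicle, removing the GC trend gave 0 for Citri Unshius Pericarpium, Bupleuri Radix and Banhasasim-tang (from 1, 1 and 2) and 1 for Cimicifugae Rhizoma and Aconiti Lateralis Radix Preparata (from 3 each). It gave 0 for Yijung-tang at 500 µg/mL against vehicle (from 2). Back at 20 µg/mL, Citri Unshius Pericarpium gave 2 with a mean CPM of 1 or more, the replicate block, own libraries only or DESeq2. Bupleuri Radix there gave 2 with median-ratio scaling, a mean CPM of 1 or more, the replicate block or DESeq2, and 0 to 3 with a library left out. Banhasasim-tang there gave 1 to 3 with a library left out. Yijung-tang at 100 against 20 µg/mL gave 1 with no filter or DESeq2 and 0 with own libraries only (from 2). For the dose effect of Citri Unshius Pericarpium minus Cimicifugae Rhizoma, 6 became 3 with no filter and 3 to 6 with a library left out.

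The replicate block, with numbers that do not pair the libraries, lost no call of a member fold change and added 5 over all comparisons. Over all genes, removing the GC trend lowered the calls at 20 µg/mL against vehicle from 3047 to 1067, 3005 to 1286, 3474 to 1227, 4975 to 2663, 4328 to 1502 and 4524 to 895 (Citri Unshius Pericarpium, Cimicifugae Rhizoma, Bupleuri Radix, Aconiti Lateralis Radix Preparata, Yijung-tang, Banhasasim-tang). At 500 µg/mL against vehicle it gave 2007 from 3589 for Citri Unshius Pericarpium and 2302 from 5221 for Yijung-tang. At 500 against 20 µg/mL, Citri Unshius Pericarpium went from 255 to 402 with it, and Yijung-tang from 601 to 322 with own libraries only. No filter raised the calls at 100 against 20 µg/mL (4 to 58, 190 to 391, 27 to 149, 192 to 386 and 2 to 69, leaving out Aconiti Lateralis Radix Preparata). DESeq2 and own-library fits were not run for the F test, own-library fits not for comparisons between extracts, and leaving out libraries not for 100 against 20 µg/mL or the F test. Depth limits CYP7A1, FGF19 and ABCB11.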

Other observations

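Bojungikgi-tang, with 1 library per dose and so no error, gave NR0B2 at 48.0, 47.2 and 56.7 CPM, SLC51A at 3.80, 3.27 and 3.99 CPM and SLC51B at 6.53, 6.94 and 4.32 CPM at 20, 100 and 500 µg/mL.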
